A study of Mus musculus with 6 samples.

Results

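The motile cilia axoneme genes described here are the 73 rows, of 26100 gene rows in the count table, whose symbol names an axonemal dynein chain (Dnah, Dnaic, Dnal, Dnali), a dynein assembly factor (Dnaaf), a cilia and flagella associated protein (Cfap), a radial spoke head protein (Rsph) or a tektin (Tekt), or is Foxj1, Mcidas, Ccdc39, Ccdc40 or Tppp3. They were chosen by symbol, with no measured value in the rule, though earlier results of these data were known. All 73 are annotated as protein coding, and 69 of them, of 16633 rows in all, passed the filter on low counts and were tested. The 6 RNA-seq libraries came from whole lungs, 3 of mice labelled Clec7a knockout (KO) and 3 of wild type (WT) mice. All 6 had received bleomycin into the trachea, a drug that injures the lung epithelium and is followed by scarring, and their lungs were taken on day 14. Clec7a encodes dectin-1, a receptor of myeloid cells for beta-glucan. The labels give neither strain, sex nor age, nor how the knockout allele was made, and lungs without bleomycin were not analysed here. Each KO or WT number below names the library of that replicate, so that KO3 is the third KO library.

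A motile cilium is a whip-like extension of the cell surface that beats, and in the lung it is carried by multiciliated cells of the airway lining, where its beat moves mucus. Its core, the axoneme, is a ring of microtubule doublets around a central pair. Outer and inner dynein arms on the doublets are the motors, radial spokes and the central apparatus pass on the signals that shape the beat, and inner proteins such as tektins brace the doublets. Dynein arms are put together in the cytoplasm by assembly factors before they enter the cilium. Multicilin, the product of Mcidas, starts the programme of multiciliated cells, and the transcription factor FOXJ1 acts below it, together with factors of the RFX family, on the genes of the motile cilium.

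The libraries held 31052936 to 34451956 counts. Clec7a itself had 114, 230 and 92 counts in the KO libraries, against 1974, 2732 and 6734 in the WT libraries, so every KO library lay below every WT library, as labelled. KO1 and WT1 stood apart from the other libraries. Their rank correlations with any other library, across the tested genes, were at most 0.947, while the other 4 libraries correlated with each other at 0.959 or more. The results for the axoneme parts are therefore also given without KO1 and WT1. The mitochondrial share of counts was 7.34%, 3.48% and 2.71% in the KO libraries, against 3.87%, 2.75% and 2.69% in the WT libraries.

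The axoneme genes moved together from library to library, and this shared movement crossed the genotypes. For each tested axoneme gene the log2 CPM (library-size-scaled counts) was centred on its mean over the 6 libraries and then averaged over the 69 genes. The result was -0.38, 0.26 and 1.06 in KO1, KO2 and KO3, against 0.78, -0.63 and -1.10 in WT1, WT2 and WT3. KO3 and WT1 were thus the high libraries, WT3 and WT2 the low ones, and KO1 lay between WT2 and KO2. The first principal component of the centred values held 85.3% of their variance, against 40.5% for all 16633 genes, and 67 of the 69 genes loaded on it with 1 sign.

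Gene by gene, KO3 was the highest library for 42 of the 69 and WT1 for 23, while KO3 was highest for 14.5% and WT1 for 25.1% of all genes tested. WT3 was the lowest library for 52 axoneme genes, against 14.0% of all genes. KO3 and WT1 together were the highest pair of libraries for 45 of the 69, where 7.65% of all genes had that pair on top. Within WT, 64 of the 69 were higher in WT1 than in both other WT libraries, a pattern found in 44.2% of all genes. Within KO, 61 of the 69 were higher in KO3 than in both other KO libraries, against 28.7% of all genes. These counts describe how the genes move across 6 libraries, which they all share, and the genes are not replicates of one another.

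**Figure D1:**
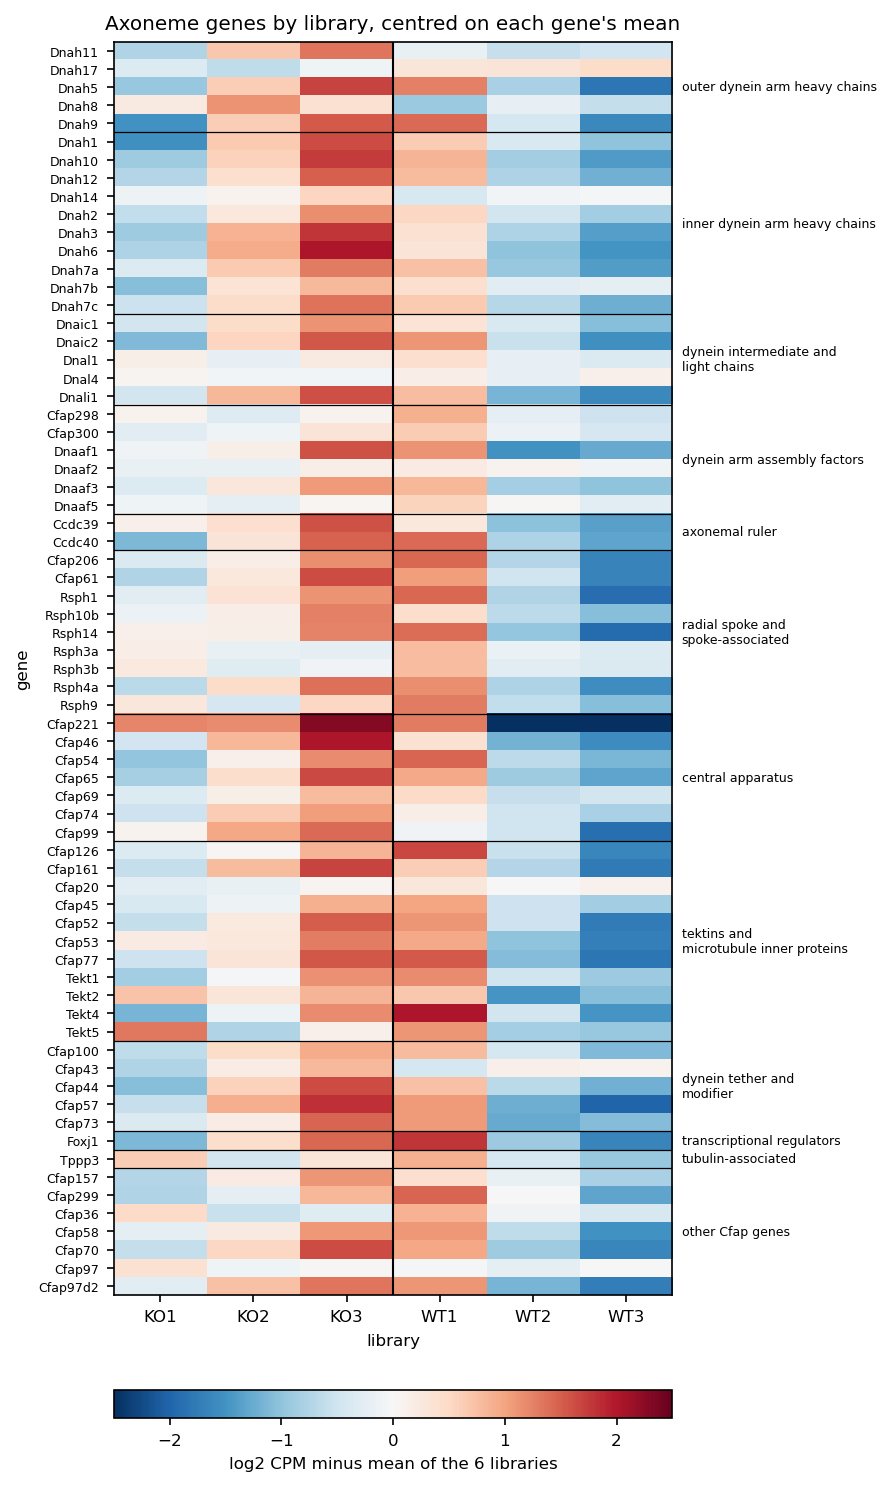
Heat map of the 69 tested axoneme genes (rows, grouped by axoneme part) in the 6 libraries (columns, KO on the left of the line and WT on the right). Colour gives log2 CPM minus the gene's mean over the 6 libraries, and Cfap221 in WT2 and WT3, with 0 counts, lies beyond the end of the scale. KO3 and WT1 are red and WT2 and WT3 blue in most rows, while rows such as Dnal4, Dnaaf2, Cfap20 and Cfap97 are pale throughout.

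A property of these genes that their choice by symbol did not use is the sequence near their starts. RefSeq promoter windows on GRCm38.p6, from 250 bases before to 50 bases after a start, were found for 59 of the 73 genes, as 66 windows. They were searched on both strands for the X-box consensus of RFX factors, an inverted repeat, and for its short core GTTGCC alone, which can lie inside an X-box. The X-box consensus was matched in 11 of the 66 windows (16.7%), against 502 of 32851 windows of that length in the whole table (1.53%). The core was matched in 24 of the 66 (36.4%), against 4111 of the 32851 (12.5%). The windows with an X-box match belonged to Cfap298, Cfap44, Cfap45, Cfap58, Cfap99, Dnaaf2, Dnaic1, Dnaic2, Rsph3b and, with 2 windows, Tekt2. These 2 windows of Tekt2 overlap and hold the same site, which is thus counted in both. None of the 14 windows of dynein heavy chain genes held an X-box match. A match describes letters in a window and does not show binding.

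The following 4 windows are shown because they hold X-box matches in genes of different axoneme parts whose levels are given below: a tether of the inner arm dyneins (Cfap44, chr16:44394549-44394848, plus strand), a microtubule inner protein (Cfap45, chr1:172520880-172521179, plus strand), an intermediate chain of the outer arm (Dnaic2, chr11:114727169-114727468, plus strand) and an assembly factor (Cfap298, chr16:90934800-90935099, minus strand). Each is written 5′ to 3′ on the strand of its gene, and capitals mark the X-box matches.
Cfap44: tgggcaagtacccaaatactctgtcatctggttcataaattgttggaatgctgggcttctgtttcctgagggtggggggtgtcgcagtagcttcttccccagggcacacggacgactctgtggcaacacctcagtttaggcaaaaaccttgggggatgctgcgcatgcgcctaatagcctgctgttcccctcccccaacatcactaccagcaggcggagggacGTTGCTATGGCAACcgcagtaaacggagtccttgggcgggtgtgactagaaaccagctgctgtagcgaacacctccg
Cfap45: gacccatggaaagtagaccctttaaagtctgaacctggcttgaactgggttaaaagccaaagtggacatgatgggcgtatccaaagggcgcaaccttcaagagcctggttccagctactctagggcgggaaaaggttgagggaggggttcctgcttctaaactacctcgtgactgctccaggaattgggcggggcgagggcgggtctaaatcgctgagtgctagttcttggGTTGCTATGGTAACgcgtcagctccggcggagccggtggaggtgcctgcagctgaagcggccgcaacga
Dnaic2: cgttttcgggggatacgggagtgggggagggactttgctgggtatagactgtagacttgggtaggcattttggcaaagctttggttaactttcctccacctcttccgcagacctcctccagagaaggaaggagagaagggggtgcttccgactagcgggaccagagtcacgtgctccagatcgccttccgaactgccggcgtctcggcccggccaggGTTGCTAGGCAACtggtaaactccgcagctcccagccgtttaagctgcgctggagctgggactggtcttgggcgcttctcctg
Cfap298: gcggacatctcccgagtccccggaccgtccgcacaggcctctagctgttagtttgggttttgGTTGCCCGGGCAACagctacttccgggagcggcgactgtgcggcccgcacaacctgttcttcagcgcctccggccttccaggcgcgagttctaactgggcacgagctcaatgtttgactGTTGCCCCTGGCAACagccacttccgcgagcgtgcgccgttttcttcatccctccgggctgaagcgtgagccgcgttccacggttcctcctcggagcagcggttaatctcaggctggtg
The match lies 27 bases before the start in Cfap44, 19 in Cfap45 and 33 in Dnaic2, and Cfap298 holds 2 matches, 188 and 69 bases before its start. The 4 genes with these windows did not share a level or a pattern. Cfap44, Cfap45 and Dnaic2 followed the shared movement, with 42.4, 9.31 and 13.1 CPM in KO3 and 5.90, 2.71 and 1.49 CPM in WT3. Cfap298 had 21.2, 16.1 and 21.3 CPM in the KO libraries, against 37.3, 17.1 and 13.9 CPM in the WT libraries, a narrower range with WT1 highest.

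Between the genotypes, no axoneme gene passed the test. By edgeR's quasi-likelihood test with Benjamini-Hochberg adjustment over the 16633 genes, 0 of the 69 had an adjusted p under 0.05 and the smallest was 0.315 (Dnah8). Over all genes the count was likewise 0 (0%). Clec7a itself, at a log2 fold change of -4.68, had an adjusted p of 0.203 by this edgeR test. A gene that did not pass is therefore not shown to be unchanged. DESeq2 called 0 of the 69, with a smallest adjusted p of 0.0754, and 667 of 19097 genes overall (3.49%). limma-voom also called 0 of the 69. At an unadjusted edgeR p under 0.05, 2 of the 69 were higher in KO (Dnah8 and Cfap99) and 0 were lower, where 5.95% of all genes were higher and 5.89% lower at that threshold.

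The estimates nevertheless lay mostly on one side. The fold change was positive, meaning higher in KO, for 55 of the 69 and negative for 14, where 49% of all genes had a positive one. The median log2 fold change of the 69 was 0.50, against -0.01 over all genes tested. In 2 of the 69 all KO libraries lay above all WT libraries, against 9.81% of all genes, and in 1 they all lay below, against 11.3%. For the other 66 the genotypes overlapped. In bulk tissue, fewer cells of a type and less RNA per cell cannot be told apart.

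The direction rested on which libraries were set against each other. KO1 lay below both other KO libraries for 54 of the 69, against 43.8% of all genes. WT1 lay above both other WT libraries for 64 of the 69, against 44.2% of all genes. Leaving out KO1 and WT1 thus raises most estimates by arithmetic, and the shift is no separate support for a genotype difference. Without KO1 and WT1, leaving 2 libraries a group, 65 of the 69 estimates were positive and the median log2 fold change was 1.77. In that comparison 50 of the 69 had an unadjusted p under 0.05, each of them higher in KO, while 15.3% of all genes were higher and 14.7% lower at that threshold. After adjustment 0 of the 69 passed, with a smallest edgeR adjusted p of 0.0615, beside 46 of 16744 genes overall (0.275%). With every other library kept, the median was 1.42 without WT1 and 0.0012 without KO3, where 35 of the 69 were positive. In the plain order of libraries, KO2 and KO3 both lay above WT2 and WT3 for 57 of the 69, against 30.8% of all genes.

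**Figure D2:**
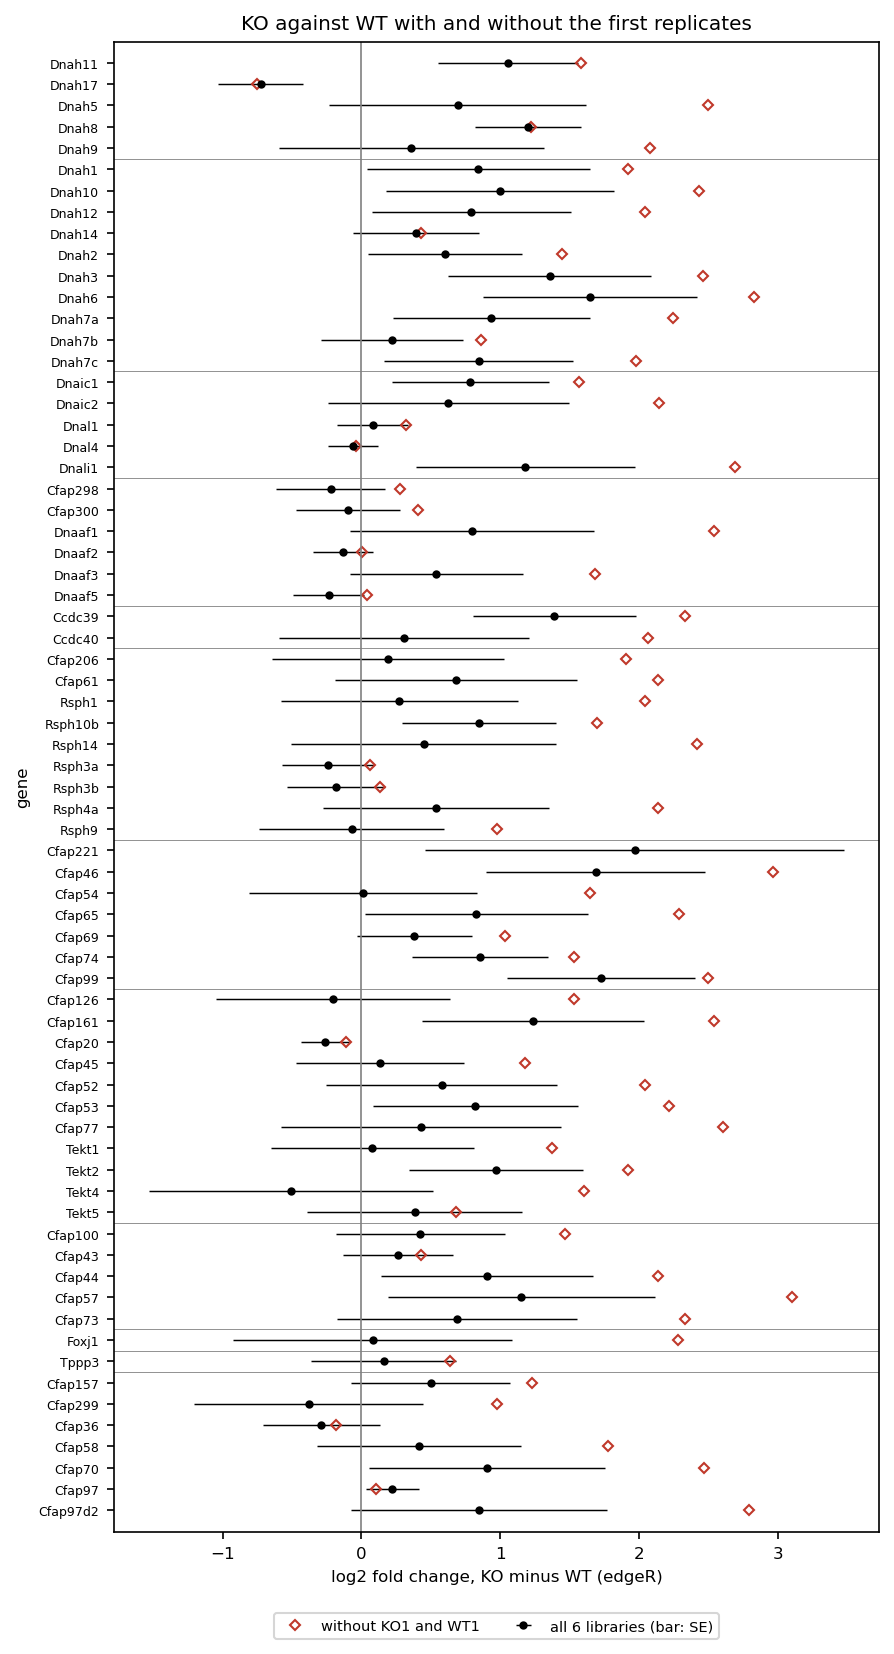
Log2 fold change of the 69 tested axoneme genes, KO minus WT, by edgeR (horizontal axis), with genes down the page grouped by axoneme part in the order of the heat map. Black points are the fit of all 6 libraries with bars of 1 SE, and open red diamonds are the fit without KO1 and WT1, in which 65 of 69 lie to the right of 0. The diamond of Cfap221, which had 0 counts in WT2 and WT3, lies beyond the axis and is not drawn.

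The transcriptional regulators stood at very unequal levels. Foxj1 (chr11:116330704-116335399, minus strand) had 12.5, 37.1 and 74.2 CPM in KO1 to KO3, against 94.0, 14.5 and 8.61 CPM in WT1 to WT3. WT1 held the highest level and WT3 the lowest, so that the WT libraries enclosed the KO libraries. The means were 41.3 ± 31.1 CPM in KO and 39.1 ± 47.7 CPM in WT (SD, n = 3 each), with a log2 fold change of 0.08 ± 1.00 (SE). Without KO1 and WT1 the estimate was 2.28. Mcidas, the gene of multicilin, did not pass the filter. It had 5, 0 and 23 counts in the KO libraries, against 22, 0 and 0 in the WT libraries, and was thus read mainly in the same 2 libraries, KO3 and WT1, that were high for Foxj1. A count of 0 allows up to 3 counts, or 0.0893 CPM in KO2, 0.0922 CPM in WT2 and 0.0875 CPM in WT3.

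Outer dynein arm heavy chains, the motor subunits that power the beat, had a median log2 fold change of 0.69 over 5 tested genes, with 4 estimates positive, and of 1.58 without KO1 and WT1. Without KO3 alone the median was -0.080. Dnah5, the heavy chain whose loss in people immobilises airway cilia, had 8.24, 24.6 and 51.5 CPM in the KO libraries, against 38.6, 9.10 and 4.49 CPM in the WT libraries. Its highest value was in KO3 and its lowest in WT3, with a log2 fold change of 0.69 ± 0.93 (SE). Dnah9, the outer arm chain of the distal part of airway cilia, had 3.66, 16.2 and 31.0 CPM in the KO libraries, against 28.4, 7.78 and 3.44 CPM in the WT libraries. KO1 was here nearly as low as WT3.

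Dnah8 (chr17:30624354-30877365, plus strand) and Dnah17 (chr11:118021723-118130634, minus strand) are outer arm heavy chains best known from sperm flagella, and they did not follow the shared movement. Dnah8 had 4.01, 7.53 and 4.50 CPM in the KO libraries, against 1.78, 2.95 and 2.25 CPM in the WT libraries. Every KO library lay above every WT library, and the log2 fold change was 1.20 ± 0.38 (SE; edgeR unadjusted p = 0.0176, adjusted p = 0.315). Dnah17 had 2.12, 1.73 and 2.50 CPM in the KO libraries, against 3.35, 3.38 and 3.76 CPM in the WT libraries. It was the only axoneme gene tested with every KO library below every WT library, at a log2 fold change of -0.73 ± 0.31 (SE; edgeR unadjusted p = 0.0519, adjusted p = 0.429). Without KO1 and WT1 the estimates were 1.22 for Dnah8 and -0.75 for Dnah17. Of 6 sperm markers (Akap4, Odf1, Prm1, Prm2, Tnp1 and Tnp2), none exceeded 7 counts in any library, and Prm2, Tnp1 and Tnp2 had 0 counts in all 6.

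Inner dynein arm heavy chains, which set the form of the bend, had positive estimates in 10 of 10 tested genes, with a median of 0.84 and, without KO1 and WT1, of 2.01. Without KO3 alone the median was 0.17. With an offset for transcript length, described below, Dnah7b was negative, at -0.07. Dnah6 (chr6:73017606-73221651, minus strand) had 9.19, 29.6 and 63.6 CPM in the KO libraries, against 19.5, 7.71 and 5.54 CPM in the WT libraries, a log2 fold change of 1.64 ± 0.77 (SE; edgeR unadjusted p = 0.0731, adjusted p = 0.466). Dnah3 had 7.11, 24.5 and 45.7 CPM in the KO libraries, against 17.4, 7.75 and 5.11 CPM in the WT libraries. In both genes KO1 lay below WT1, which kept the groups overlapping. The estimate of Dnah14, at most 19 counts in any library, was 0.39, and the 3 near-identical genes Dnah7a, Dnah7b and Dnah7c had 0.94, 0.22 and 0.84. Between 29.6% and 46.8% of the 50-base windows of each Dnah7 transcript set recur in the other 2 genes, so their separate counts are uncertain. Likewise 10.5% of the exon bases of Dnah3 overlap Lyrm1 on the opposite strand, and whether counting used strand is not stated in the sources used here.

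Intermediate and light chains, which hold the arm to the doublet and tune its motors, had a median of 0.63 over 5 genes, of 1.57 without KO1 and WT1, and of 0.0012 without KO3 alone. Dnali1, a light intermediate chain of inner arms, had 3.76, 9.26 and 16.0 CPM in the KO libraries, against 8.88, 2.27 and 1.66 CPM in the WT libraries (log2 fold change 1.18 ± 0.79, SE). Dnaic2 was likewise highest in KO3 and lowest in WT3. The light chains Dnal1 and Dnal4 varied little between libraries. Dnal4 had 20.5, 18.6 and 18.5 CPM in the KO libraries, against 21.8, 17.0 and 21.3 CPM in the WT libraries. Its fold change was -0.06 ± 0.18, and that of Dnal1 was 0.08 ± 0.26 (log2, SE).

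The dynein arm assembly factors were the part with a negative median, -0.11 over 6 genes, of which 2 estimates were positive. Without KO1 and WT1 the median was 0.34, and with the length offset it was 0.01. Dnaaf5, a cytoplasmic factor needed before arms enter the cilium, had 17.5, 16.2 and 19.7 CPM in the KO libraries, against 27.9, 19.3 and 15.7 CPM in the WT libraries. WT1 alone stood above the rest. Cfap298, whose promoter is shown above, had a log2 fold change of -0.22 ± 0.39 (SE), and 44.2% of its exon bases overlap a transcript on the opposite strand. Dnaaf1, by contrast, followed the shared movement with 1.52, 1.79 and 4.96 CPM in the KO libraries, against 3.59, 0.523 and 0.642 CPM in the WT libraries. Of its exon bases, 20.7% overlap Taf1c on the opposite strand, so its counts are uncertain, and 10.6% of those of Dnaaf5 overlap a transcript on the opposite strand.

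Ccdc39 and Ccdc40 form the molecular ruler along the doublet that sets the spacing of spokes and inner arms. Ccdc39 (chr3:33812362-33844310, minus strand) had 8.94, 11.04 and 24.7 CPM in the KO libraries, against 9.92, 3.996 and 3.15 CPM in the WT libraries. WT1 lay between KO1 and KO2, and the log2 fold change was 1.39 ± 0.58 (SE; edgeR unadjusted p = 0.0516, adjusted p = 0.427). Of its exon bases, 16.9% overlap Ttc14 on the opposite strand. Ccdc40 had 3.51, 9.61 and 21.6 CPM in the KO libraries, against 20.6, 4.49 and 3.04 CPM in the WT libraries, a log2 fold change of 0.31 ± 0.90 (SE). The part median without KO1 and WT1 was 2.20, against 0.85 with them and 0.15 without KO3 alone. Both partners were highest in KO3 and lowest in WT3, while WT1 was nearly level with KO3 for Ccdc40 and well below it for Ccdc39.

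Radial spoke genes had a median of 0.27 over 9 tested of 10, with 6 estimates positive, of 1.90 without KO1 and WT1, and of -0.16 without KO3 alone. Rsph1, a spoke head protein, had 5.21, 8.10 and 13.7 CPM in the KO libraries, against 17.0, 3.69 and 1.63 CPM in the WT libraries. Rsph10b had 4.96, 6.19 and 13.3 CPM in the KO libraries, against 7.52, 3.47 and 2.60 CPM in the WT libraries. Both ranged widely, with WT3 lowest. Of the exon bases of Rsph10b, 10.5% overlap another gene on the same strand. The stalk genes Rsph3a and Rsph3b were the most abundant of the part per length, at 11.02 and 9.78 FPKM over the 6 libraries, and ranged about 2.16-fold and 2.20-fold between the extreme libraries. Of their 50-base windows, 54.4% and 54.3% recur in the other gene, so their reads may be divided between them. Rsph6a had at most 4 counts in any library.

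All 7 tested genes of the central apparatus, which signals to the spokes, had positive estimates, with a median of 0.85 and, without KO1 and WT1, of 2.29. Without KO3 alone the median was 0.49. With the length offset Cfap54 was negative, at -0.39. Cfap65 had 5.69, 13.8 and 31.9 CPM in the KO libraries, against 19.5, 5.41 and 4.03 CPM in the WT libraries, and thus followed the shared movement. Cfap46 had 3.38, 8.39 and 19.4 CPM in the KO libraries, against 6.11, 2.03 and 1.55 CPM in the WT libraries (log2 fold change 1.69 ± 0.79, SE). Cfap69, the most abundant of them per length, had 9.54, 13.4 and 21.03 CPM in the KO libraries, against 16.9, 8.08 and 8.81 CPM in the WT libraries. Cfap99 (chr5:34288600-34327327, plus strand) had 0.632, 1.22 and 1.70 CPM in the KO libraries, against 0.553, 0.400 and 0.117 CPM in the WT libraries. Its groups did not overlap, and its log2 fold change was 1.72 ± 0.68 (SE; edgeR unadjusted p = 0.0403, adjusted p = 0.406), resting on 4 to 55 counts a library. Cfap221, chosen after its values were seen, had 34, 35 and 76 counts in the KO libraries, against 37, 0 and 0 in the WT libraries.

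Tektins and other microtubule inner proteins had a median of 0.38 over 11 tested of 12, with 8 estimates positive, of 1.60 without KO1 and WT1, and of -0.33 without KO3 alone. Tekt1 had 2.62, 4.64 and 10.7 CPM in the KO libraries, against 11.1, 3.41 and 2.54 CPM in the WT libraries. Tekt2 had 3.85, 2.86 and 4.22 CPM in the KO libraries, against 3.72, 0.799 and 1.08 CPM in the WT libraries, so that WT1 alone reached the KO levels. A transcript on the opposite strand overlaps 20.8% of its exon bases, so its counts are uncertain. Cfap126, known as Flattop, was highest in WT1, with 4.58, 5.92 and 10.6 CPM in the KO libraries, against 18.6, 3.93 and 1.84 CPM in the WT libraries. Cfap20, which lies at the seam of the doublet and also serves cilia that do not beat, kept to 24.6 to 31.2 CPM in KO and 30.1 to 36.1 CPM in WT. Tekt3 had at most 8 counts in any library.

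The tether and modifier genes of inner arm dyneins had 5 of 5 positive estimates, a median of 0.69 and, without KO1 and WT1, of 2.14. Without KO3 alone the median was 0.056. Cfap44 had 6.51, 20.4 and 42.4 CPM in the KO libraries, against 22.7, 8.48 and 5.90 CPM in the WT libraries. Its tether partner Cfap43 differed. It had 37.3, 71.5 and 111 CPM in the KO libraries, against 46.7, 68.7 and 67.5 CPM in the WT libraries, so that WT1 was the lowest WT library. Cfap57 had 1.52, 4.35 and 8.26 CPM in the KO libraries, against 4.88, 0.953 and 0.525 CPM in the WT libraries, the order of the shared movement. Among the other Cfap genes, with a median of 0.42 over 7 tested of 8 and of 1.23 without KO1 and WT1, Cfap36 was highest in the pair KO1 and WT1. It had 59.8, 28.9 and 34.8 CPM in the KO libraries, against 78.2, 40.3 and 32.3 CPM in the WT libraries.

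Tppp3, a tubulin-binding protein abundant in ciliated cells, was the highest of the 73 genes per length. It averaged 79.8 ± 26.7 FPKM in KO and 67.1 ± 43.5 FPKM in WT (SD, n = 3 each). By count it had 122, 57.8 and 98.2 CPM in the KO libraries, against 148, 59.4 and 41.4 CPM in the WT libraries, with KO1 above KO3, unlike most of the others. The log2 fold change was 0.16 ± 0.52 (SE). Per length the next genes were Cfap36 at 26.1, Cfap20 at 20.3, Cfap43 at 16.2 and Foxj1 at 14.5 FPKM over the 6 libraries, and the median of the tested genes was 1.98 FPKM. Heavy chains were low on this scale, with part medians of 0.885 FPKM for the outer and 0.511 FPKM for the inner arm.

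**Figure D3:**
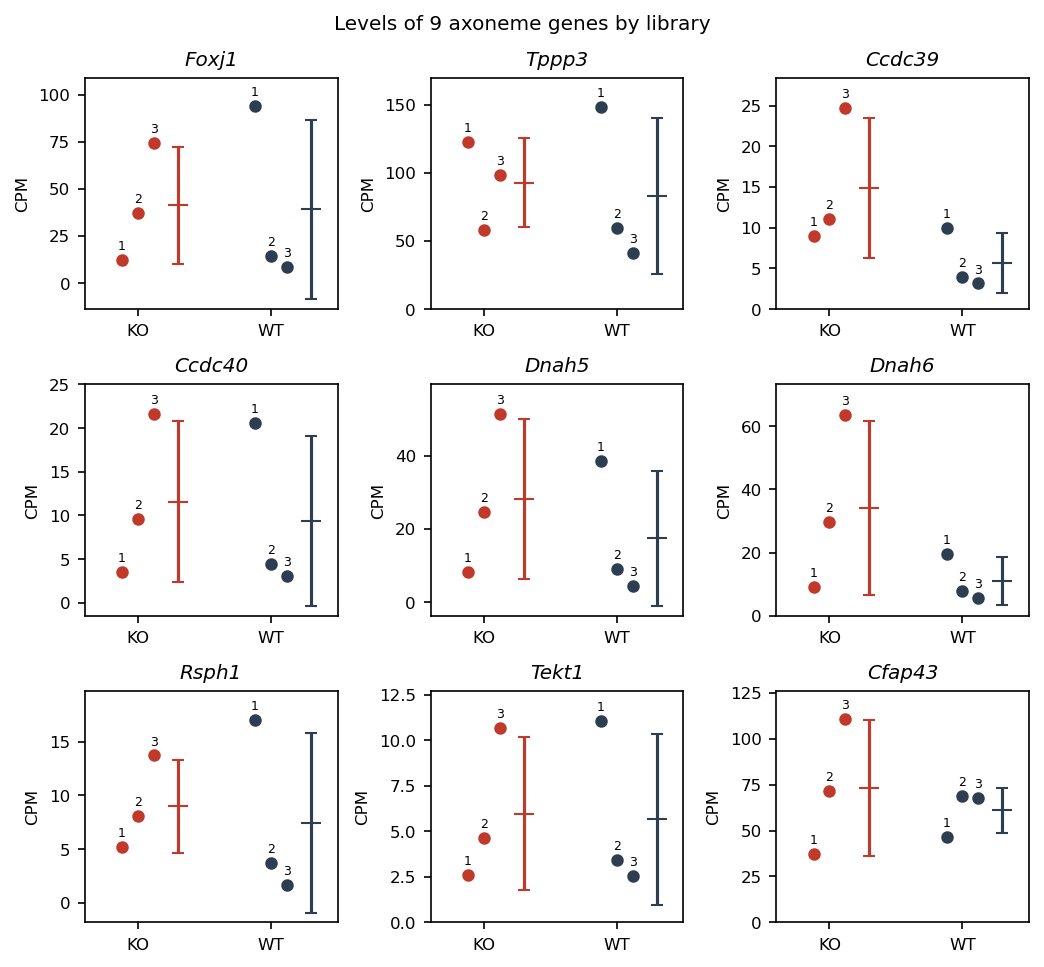
Level of 9 axoneme genes (vertical axis, CPM) in each library, KO on the left and WT on the right, with the replicate number over each point. The bar beside each group is its mean and SD (n = 3). WT1 and KO3 are high in most panels and WT2 and WT3 low, while Tppp3 is also high in KO1, Ccdc39 and Dnah6 put KO3 well above WT1, and Cfap43 has WT1 as its lowest WT library.

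The genes outside the shared movement fell into a small set. The range over the 6 libraries was under 2-fold (log2 CPM with a prior count of 2) for Cfap20, Cfap97, Dnaaf2, Dnaaf5, Dnah14, Dnal1 and Dnal4, and over 8-fold for 25 of the 69. WT1 was not above both other WT libraries for Cfap43, Cfap97, Dnah14, Dnah17 and Dnah8. KO3 was not above both other KO libraries for Cfap36, Cfap97, Dnah8, Dnal4, Rsph3a, Rsph3b, Tekt5 and Tppp3.

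The axoneme parts were ordered differently in the high libraries, and for some parts the difference moved with transcript length. KO3 exceeded WT1 by a mean of 0.90 (log2 CPM) over the inner arm heavy chains, 0.83 over the central apparatus, 0.69 over the ruler genes, 0.69 over the tether and modifier genes, 0.59 over the outer arm heavy chains and 0.33 over intermediate and light chains. The same mean difference was -0.20 for radial spoke genes, -0.16 for assembly factors, -0.09 for tektins and inner proteins and -0.02 for other Cfap genes. Heavy chain transcripts are the longest of the set, at 12009 bases or more. Across the 69 genes the Spearman correlation of this difference with the length of the longest annotated transcript was 0.55, and across 15241 genes with a length it was 0.43. Over all genes, the median of KO3 minus WT1 was -0.93 for transcripts up to 1000 bases and 0.67 for those over 8000 bases. Genes share the 2 libraries compared and are not independent replicates.

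The length trend set the first replicates of both genotypes apart from the others. The difference of WT1 from the mean of WT2 and WT3 had a Spearman correlation with length of -0.30 over the axoneme genes and -0.41 over all genes. For KO1 against the mean of KO2 and KO3 it was -0.45 and -0.38. An offset fitted to length in each library, chosen after the data were seen, left correlations of KO3 minus WT1 with length of -0.16 and -0.02. After it the part means of KO3 minus WT1 were 0.14 for inner and -0.24 for outer arm heavy chains, 0.57 for the central apparatus, 0.10 for radial spoke genes, 0.08 for assembly factors, 0.25 for tektins and inner proteins and 0.19 for other Cfap genes. The tether and modifier genes kept a mean of 0.68, intermediate and light chains had 0.48 and the ruler genes 0.52, so that the offset brought the heavy chains down but did not remove the differences among the parts. The median log2 fold change between genotypes with the offset was 0.12 for outer and 0.44 for inner arm heavy chains, against 0.69 and 0.84 without it. The shared movement stayed nearly as it was, at -0.31, 0.24 and 1.03 in KO1 to KO3, against 0.80, -0.62 and -1.13 in WT1 to WT3.

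**Figure D4:**
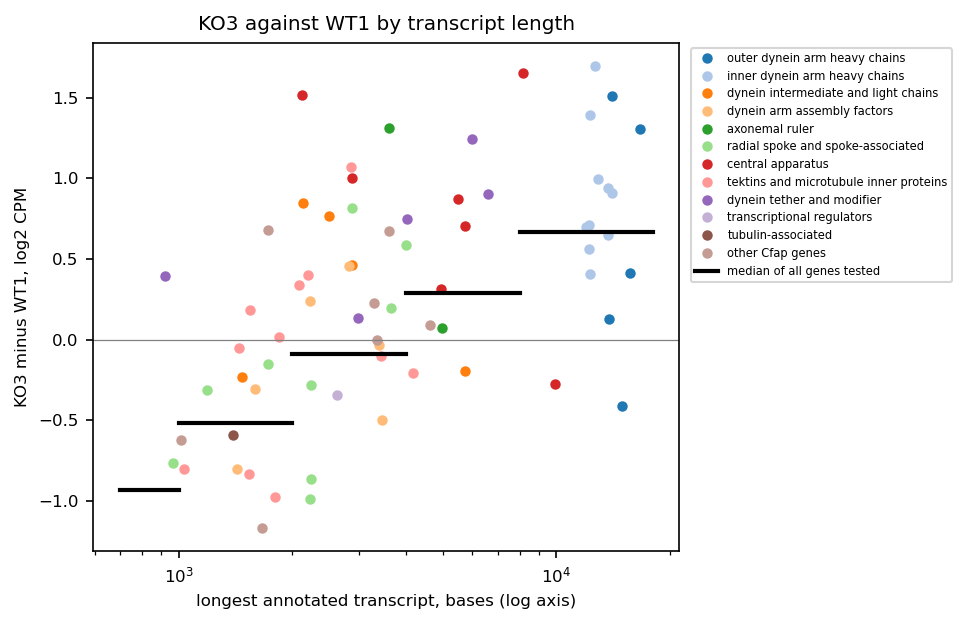
Difference KO3 minus WT1 in log2 CPM (vertical axis) against the length of the longest annotated transcript in bases (horizontal log axis) for the 69 tested axoneme genes, coloured by part. Black bars are medians of all tested genes in 5 length classes, from -0.93 up to 1000 bases to 0.67 over 8000 bases. Heavy chains lie to the right, mostly above 0.

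Genes of motile cilia that the symbol rule does not name were also high in KO3 and WT1 and low in WT2 and WT3. Of 45 genes of docking complexes, nexin links and other cilium parts, 43 were tested. Their profile was -0.42, 0.37 and 1.17 in the KO libraries, against 0.94, -0.72 and -1.35 in the WT libraries, with a median log2 fold change of 0.49, and 38 estimates were positive. Without KO1 and WT1 the median was 2.09. Of the 43, 0 passed the test, and 3 had an unadjusted p under 0.05, Spef1, Dyx1c1 and Wdr78, where 11.8% of all genes tested had one in either direction. Pih1d3 had 0 counts in all libraries. For 15 markers of ciliated cells, all tested, the profile was -0.07, 0.05 and 0.94 in the KO libraries, against 1.24, -0.70 and -1.46 in the WT libraries, and 9 estimates were positive. In these markers WT1 lay above KO3, unlike in the axoneme genes. With the length offset these markers too had KO3 above WT1, at 1.09 against 0.89. Their summed level was 1218 to 2449 CPM in KO and 921 to 2541 CPM in WT. Most of the sum came from Sec14l3, Tuba1a and Tubb4b, which made KO1 the highest KO library by sum but not by the profile.

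Intraflagellar transport genes, which carry cargo in motile and other cilia alike, moved far less. The profile of the 26 was 0.06, -0.12 and 0.15 in the KO libraries, against 0.35, -0.19 and -0.24 in the WT libraries, with a median log2 fold change of 0.03. Of 12 tested regulators of multiciliated cells, 7 estimates were positive and the median was 0.07, or 0.28 without KO1 and WT1. The profile of the 12 was -0.37, 0.07 and 0.57 in the KO libraries, against 0.48, -0.33 and -0.42 in the WT libraries. KO3 and WT1 were again the highest libraries on average, over a narrower range than in the axoneme genes, but single regulators differed. Trp73 had 0.979, 3.75 and 6.38 CPM in the KO libraries, against 6.48, 2.00 and 1.02 CPM in the WT libraries. Myb had 3.25, 4.61 and 8.94 CPM in KO, against 6.97, 2.55 and 2.01 CPM in WT. E2f4, by contrast, kept to 38.6 to 43.7 CPM in KO and 40.8 to 49.2 CPM in WT, and Plk4 was highest in WT2 and WT3. Rfx2 had 7.58, 8.81 and 13.4 CPM in the KO libraries, against 22.1, 12.1 and 14.1 CPM in the WT libraries, and Rfx3 had 10.3, 18.3 and 22.8 CPM in KO, against 13.5, 13.6 and 14.97 CPM in WT. WT1 was thus high for Rfx2 but not for Rfx3.

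Markers of airway secretory cells, which neighbour the ciliated cells, moved with the axoneme genes and over a wider range. The profile of the 16 was -0.43, 0.72 and 1.21 in the KO libraries, against 2.22, -1.54 and -2.19 in the WT libraries. Their summed level was 2111 to 5246 CPM in KO and 388 to 12840 CPM in WT. None of the 16 was at 0 in all libraries, and Tff2 had 0 counts in WT2. Scgb1a1, the club cell secretoglobin, had 66820, 37756 and 117329 counts in the KO libraries, against 333535, 27433 and 8579 in the WT libraries. The library order WT1, KO3, KO2, KO1, WT2, WT3 differed from that of the axoneme genes in placing WT1 above KO3, and was that of the ciliated cell markers without the length offset. With the offset, WT1 stayed above KO3 in the secretory markers, at 1.89 against 1.31, but not in the ciliated cell markers. The part of the secretory markers in the axoneme result was not tested.

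Markers of alveolar cells had another order. For 12 type 2 markers the profile was 1.303, -0.44 and 0.85 in the KO libraries, against 0.46, -0.89 and -1.28 in the WT libraries, with 12 of 12 positive estimates. Their summed level was 4209 to 22797 CPM in KO and 2287 to 11698 CPM in WT. For 10 type 1 markers it was 1.21, -0.54 and 0.34 in KO, against 0.59, -0.58 and -1.03 in WT, and the summed level was 3228 to 9170 CPM in KO and 2574 to 7375 CPM in WT. KO1 was their highest library, where the axoneme genes lay below their mean, at -0.38, though above WT2 and WT3. WT3 was the lowest library in both. Of 8 basal airway markers 5 were tested (Dapl1, Krt17 and Krt5 were below the filter), with 4.07 to 17.7 CPM summed in KO and 3.23 to 7.89 CPM in WT. The part of these markers in the axoneme result was not tested.

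**Figure D5:**
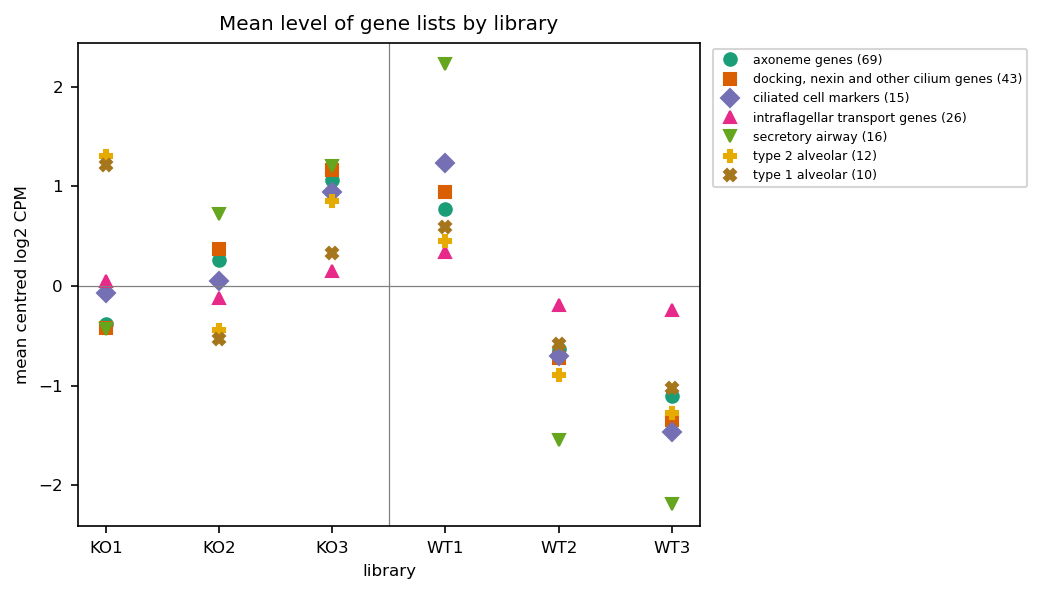
Mean over each gene list of the log2 CPM centred on each gene's mean over the 6 libraries (vertical axis), by library (horizontal axis, KO left of the line, WT right), with the number of tested genes of each list in the legend. Axoneme genes, other cilium genes and ciliated cell markers lie close together in every library, secretory airway markers range from 2.22 in WT1 to -2.19 in WT3, and alveolar markers are highest in KO1.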

How the data were processed

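Whole-lung RNA of 6 mice, 3 KO and 3 WT, was sequenced after TRIzol extraction and NEBNext Ultra library preparation, per the labels' protocols. The authors deposited whole-number read counts per gene without normalization, and a second table of FPKM values (fragments per kilobase per library size). The submitters' processing notes name HISAT2 2.0.4, StringTie 1.3.4d and the build GRCm38. Nothing read here states the counting settings or the strand. KO columns of the FPKM table carry no replicate number that a label explains, so only group means of KO FPKM are given.

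Counts were filtered with filterByExpr, scaled with TMM factors (0.971 to 1.045) and tested with a robust quasi-likelihood fit of genotype in edgeR 4.0.16 (R 4.3.3). P-values are 2-sided and Benjamini-Hochberg adjusted over 16633 genes, with a threshold of 0.05. They set the difference between the genotypes against the spread among the libraries within each genotype. The SE of a log2 fold change was derived from it and the F statistic, and so carries the same information as the unadjusted p. Centred values use log2 CPM with a prior count of 2. DESeq2 1.42.0, limma-voom and limma (3.58.1) on log2(FPKM + 1) were alternatives, with other scalings, filters, a replicate block and libraries left out. The scripts were tested on simulated counts. Lengths, exons and coordinates come from GENCODE M21 (GRCm38), promoters from RefSeq. Counting error matters mainly for genes of few counts, and floors of 0 counts cover counting error only.

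The genes, the axoneme parts and the other lists were chosen with earlier results of these data known. Named in the text by rule were Foxj1, Mcidas, Ccdc39, Ccdc40 and Tppp3, in each part the 2 tested genes of highest mean FPKM and the one of smallest p, and the 5 of smallest p in each direction. Other genes named were chosen after their values were seen. Similarity of near-identical genes was measured on transcripts, as shared 50-base windows, in place of the protein identity first planned.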

Additional observations from a re-analysis of the deposited data

How the results depend on the processing

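No axoneme gene was called under any alternative run. The count over all genes, 0 by edgeR, was 667 with DESeq2, 46 without both first replicates and 0 to 3 with single libraries left out. The median log2 fold change of the axoneme genes, 0.50, was 0.33 to 0.69 under the other scalings, filters, tests, the FPKM table and the length offset. It ranged from 0.0012 to 1.42 with single libraries left out and was 1.77 without both first replicates. The profile by library moved by less than the spread within groups with a prior count of 0.5 or a median. Whether the replicate numbers pair KO and WT libraries was not settled. Deviations from the group means correlated at 0.35, 0.35 and -0.10 for numbers 1, 2 and 3. KO1 and WT1 correlated best with each other, but KO2 did so with WT3 and KO3 with WT2. With a replicate block the median was 0.76, 0 axoneme genes were called and 0 genes overall. At an unadjusted edgeR p under 0.05 the block had 20.4% of all genes, against 11.8% without it, and 1 of the 69 axoneme genes, against 2.

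Without both first replicates the part medians were 2.20 for the ruler, 2.29 for the central apparatus, 1.57 for intermediate and light chains, 2.14 for tether and modifier, 2.01 for inner and 1.58 for outer arm heavy chains, 1.23 for other Cfap genes, 1.90 for spokes, 1.60 for tektins and inner proteins and 2.28 for Foxj1. With single libraries left out, tether and modifier ranged from 0.056 to 1.68, spokes from -0.20 to 1.61, tektins and inner proteins from -0.33 to 1.41, Foxj1 from -0.65 to 1.84 outer arm heavy chains from -0.080 to 1.18, inner arm heavy chains from 0.17 to 1.63, the ruler from 0.15 to 1.84, intermediate and light chains from 0.0012 to 1.24, the central apparatus from 0.49 to 1.86, assembly factors from -0.27 to 0.30, and other Cfap genes from -0.037 to 0.87. In each the lowest value was without KO3, except for spokes (without WT3), and the highest without WT1.

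Single genes changed sign in some fits, and the cause was not tested. With single libraries left out, log2 fold changes ranged from -0.51 to 1.62 for Ccdc40, -0.68 to 1.29 for Cfap126, -0.47 to 0.33 for Cfap298, -0.66 to 0.18 for Cfap36, -0.16 to 0.58 for Cfap43, -0.41 to 0.022 for Dnaaf5, -0.080 to 2.05 for Dnah5, -0.41 to 1.59 for Dnah9, -0.066 to 0.35 for Dnal1, -0.16 to 0.0016 for Dnal4, -0.44 to 0.19 for Rsph3a, -0.38 to 0.28 for Rsph3b and -0.16 to 0.88 for Tppp3. Without both first replicates Cfap126 was 1.53, Cfap298 0.28, Dnaaf5 0.043, Rsph3a 0.062 and Rsph3b 0.13. With the length offset Cfap126 was 0.27, Dnah9 -0.19 and Dnal4 0.026. Cfap126 was 0.38 with limma-voom and 0.39 with the replicate block.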
